A study of Mus musculus with 4 samples.

Results

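The genes described here take fatty acids up, store them as triglyceride and release them again, and several of them serve as adipocyte markers. They are Fabp4, Cd36, Lipe, Car3, Pparg, Lpl, Pnpla2, Dgat2, Adipoq and Cfd. The members were all probe sets annotated to exactly 1 gene symbol that is on this list of 10 genes. The rule found 18 probe sets of 9 genes, out of 12393 genes with such probe sets on the array, and Cfd is not analysed here. Fabp4 and Car3 lie on chromosome 3, Cd36 on 5, Pparg on 6, Lipe, Pnpla2 and Dgat2 on 7, Lpl on 8 and Adipoq on 16. RNA was measured on 4 Affymetrix Mouse Genome 430A 2.0 arrays, 1 per tumor, and values are MAS5 signals on a linear scale. The tumors grew under the skin of nude mice (NCR Nu/Nu) from 10000000 injected cells of the line iBMK, immortalized epithelial cells of the baby mouse kidney. All 4 tumors were ATG5-/-, carried Bcl-2 and received no treatment. In 2 of them the cells expressed EGFP, a green fluorescent protein, and in the other 2 they expressed p62-EGFP, the autophagy adaptor p62 fused to it. The comparison asks which transcripts differ when p62 is in excess in tumors that cannot degrade it by autophagy. The RNA came from whole tumors and holds host transcripts too. Nude mice lack a thymus but keep macrophages, endothelium, fat and muscle. Nothing in the labels tells whether each tumor had its own mouse or culture, so p-values measure only the spread between these tumors, which may be technical.

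Fat leaves the blood in steps. Lipoprotein lipase (Lpl) splits circulating triglyceride at the capillary wall, the scavenger receptor CD36 helps fatty acids into the cell, and the binding protein FABP4 carries them inside. DGAT2 makes triglyceride, and the lipases ATGL (Pnpla2) and HSL (Lipe) break it down in turn. The nuclear receptor PPARg drives adipocyte differentiation and turns on Fabp4, Cd36, Lpl and Adipoq in fat cells. Several of these genes are not restricted to fat cells: macrophages also use Pparg, Cd36, Lpl and Fabp4, capillary endothelium uses Cd36 and Fabp4, and slow muscle fibres are rich in the carbonic anhydrase encoded by Car3.

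The genes did not behave as 1 group. Cd36, Fabp4 and Lipe read lower in the p62-EGFP tumors, Car3 and Adipoq read higher, and Pparg, Lpl, Pnpla2 and Dgat2 overlapped between the groups at their brightest probe sets. No difference passed the test. Of the 18 probe sets, 13, from 8 genes, were bright enough to be tested, and 0 of the 13 passed an adjusted p of 0.05 (limma, Benjamini-Hochberg over 13576 probe sets). Over all tested probe sets 0.0884% passed, 0.0589% as higher in p62-EGFP tumors and 0.0295% as lower. At an unadjusted p under 0.05 limma counted 4 of the 13, beside 14.5% of all tested probe sets. These were both Car3 probe sets as higher, beside 8.74% of all, and 1 of Cd36 and that of Lipe as lower, beside 5.77%. In all of the following, tumors 1 and 2 of a group are given in that order. The adjusted p-values of the 13 ran from 0.221 to 0.946. With EGFP tumor 1 left out 9 of the 13 passed, beside 20.9% of all tested probe sets, and with EGFP tumor 2 left out 4 passed, beside 9.42%. Both fits hold 1 EGFP tumor, assumed to vary like the p62-EGFP tumors, whose spread they use. With either p62-EGFP tumor left out 0 passed (limma), of the members and of all probe sets. Of all 18 probe sets, 5 had both p62-EGFP values under the EGFP pair, 4 had both over it, and 9 overlapped. Of the 13 tested, 4 lay under it, 3 over it, and 6 overlapped. Over the tested probe sets of the array such separation occurred in 22.2% with p62-EGFP lower and in 26.7% with p62-EGFP higher. The median log2 difference over the 8 tested genes, each at its brightest probe set, was -0.30, beside 0.01 over the 7847 tested genes of the array. With untested Adipoq added as the ninth it was -0.14.

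EGFP tumor 2 was the highest for 6 of the 9 genes at the brightest probe set. The gap to the next tumor was wide for Fabp4, Cd36, Pparg and Lpl and narrow for Lipe and Pnpla2. It had the highest signal of the 4 tumors for 12 of the 18 probe sets, and for 9 of the 13 that were tested, whereas it was the highest for 22.9% of all tested probe sets. The p62-EGFP tumor 1 had the lowest signal for 10 of the 18, and for 7 of the 13 tested, beside 21.3% of all tested probe sets. Over the 18 probe sets the median size of the log2 difference between the EGFP tumors was 0.93, and between the p62-EGFP tumors 0.38. Over all tested probe sets these medians were 0.27 and 0.14. Over the 13 tested members alone they were 0.88 and 0.41. At the median of these probe sets the tumors of 1 group therefore differed by more than the typical probe set did, as the plot of signals by tumor shows. Not every gene did. Between the EGFP tumors the size was 0.12 for Lipe, 0.22 for the brighter probe set of Pnpla2 and 0.21 for Adipoq.

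**Figure D1:**
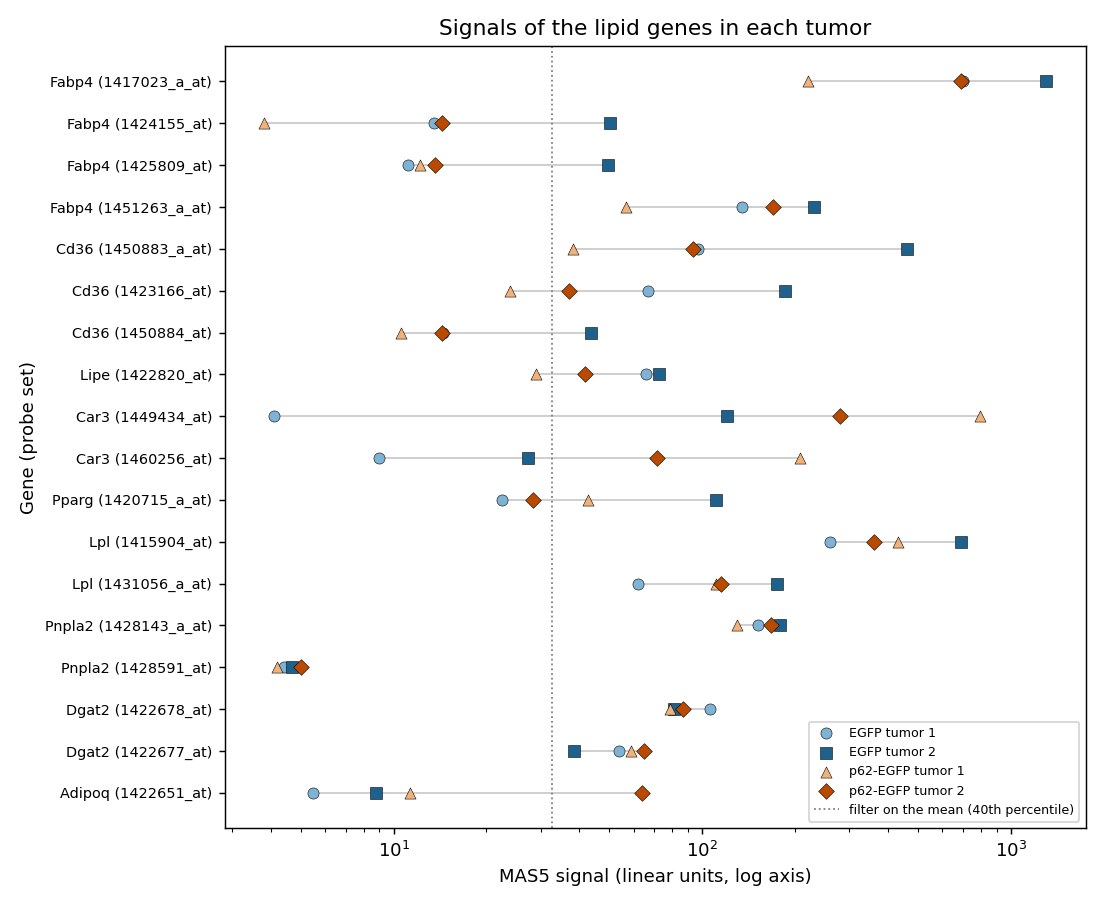
MAS5 signal (log axis) of each of the 18 probe sets in the 4 tumors, with a point per tumor, a grey line over their range and a dotted line at the signal of the filter on dim probe sets. EGFP tumor 2 (dark squares) lies farthest right for 12 of the 18, and the 2 Car3 probe sets run the other way, with both p62-EGFP tumors on the right.

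Markers of fat cells other than these genes were dim, at or near the filter or below it, so the label adipocyte is not borne out for these tumors as a whole. Of 17 adipocyte markers 14 were measured, with Adipoq among them, and 13 of the 14 were too dim to be tested. Their summed signal was 121 and 145 with EGFP against 161 and 283 with p62-EGFP. Without Adipoq the sums were 115 and 136 against 149.5 and 219.6. No marker was at 0 in all tumors, but Lep, the fat hormone leptin, read 0.8 and 0.8 against 0.4 and 1.4. Slc2a4, the insulin-regulated glucose transporter of fat and muscle, was the 1 marker bright enough to be tested, at 39.9 and 40.6 against 35.0 and 38.4.

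Adipoq encodes adiponectin, a hormone made by fat cells. Its probe set (1422651_at) read 5.5 and 8.8 with EGFP against 11.3 and 63.7 with p62-EGFP. The p62-EGFP pair was the higher one, but only its tumor 2 read above the filter. The mean over the 4 tumors was below the filter, so the log2 difference of 1.01 has no test at the chosen filter. Without p62-EGFP tumor 2 it was 0.24. Other fat cell markers were also highest in that tumor, 7 of the 14 with Adipoq included. It was the highest for 22.8% of all tested probe sets, which are brighter than most of these markers. Some of the 7 were near the floor, such as Lep at 1.4. Acvr1c, Aqp7 and Ucp1, also near the floor, were lowest in that tumor. Retn, the fat cell hormone resistin in mice, read 17.1 and 3.2 against 20.9 and 38.6. Plin4, a lipid droplet coat protein, read 9.8 and 18.2 against 19.1 and 41.6. Thrsp, a regulator of fatty acid synthesis, read 7.1 and 27.4 against 13.8 and 33.3. These signals were all dim, and what part fat cells have in the level of any gene here was not tested. In bulk tumor RNA, fewer cells of a type and less RNA per cell cannot be told apart.

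The upstream sequences of Cd36 and Adipoq are shown because these genes are both targets of PPARg but were highest in different tumors. They run from 250 bases before to 50 after the RefSeq start (build GRCm38.p6): chr5:17835847-17836146 on the minus strand for Cd36 and chr16:23146286-23146585 on the plus strand for Adipoq. Capitals mark the core hexamer of nuclear receptors such as PPARg (AGGTCA, or TGACCT on the other strand) and the CCAAT box (CCAAT or ATTGG).
Cd36: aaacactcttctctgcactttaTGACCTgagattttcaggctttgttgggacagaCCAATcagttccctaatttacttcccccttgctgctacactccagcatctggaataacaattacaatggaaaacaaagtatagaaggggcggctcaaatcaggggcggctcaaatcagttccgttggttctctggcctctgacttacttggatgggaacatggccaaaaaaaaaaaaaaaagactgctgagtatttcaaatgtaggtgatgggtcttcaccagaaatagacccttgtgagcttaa
Adipoq: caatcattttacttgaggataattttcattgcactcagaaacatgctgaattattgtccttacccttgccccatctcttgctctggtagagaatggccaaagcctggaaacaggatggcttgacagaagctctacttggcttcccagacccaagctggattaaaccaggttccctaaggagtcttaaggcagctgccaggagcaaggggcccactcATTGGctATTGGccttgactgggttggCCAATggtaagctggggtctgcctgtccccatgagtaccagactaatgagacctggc
The Cd36 window holds 1 hexamer and 1 CCAAT box, and the Adipoq window holds 0 hexamers and 3 CCAAT boxes. Of 32851 promoter windows of this length in the table, 16.3% hold the hexamer on either strand and 37.4% the CCAAT box. The full direct repeat bound by PPARg with its partner RXR (AGGTCA repeated after 1 base of any kind, either strand) is in 0.0396% of the windows and in 0 of the 9 windows of the 6 listed genes that the table holds. These matches are letters in a window and do not show that a factor binds there.

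Cd36, the fatty acid receptor, read lower in the p62-EGFP tumors at all 3 of its probe sets. The brightest (1450883_a_at) read 96.9 and 462 with EGFP against 38.2 and 93.7 with p62-EGFP. EGFP tumor 2 stood far above the rest, and p62-EGFP tumor 2 lay just below EGFP tumor 1. The means were 279 ± 258 and 65.95 ± 39.2 (SD, n = 2 each), and the log2 difference was -1.59 (SE 0.73, limma adjusted p = 0.384). The second probe set (1423166_at) separated the groups more widely, at 66.7 and 186 against 23.9 and 37.1, with a log2 difference of -1.49 (SE 0.45, limma adjusted p = 0.267). The third (1450884_at) read 14.5 and 43.6 against 10.6 and 14.3, below the filter. All 3 put the tumors in the same order. Without EGFP tumor 2 the log2 differences of the tested pair were -0.55 and -0.85, the same direction at a smaller size.

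Fabp4, the fatty acid carrier, had 4 probe sets, of which 2 could be tested. The brightest (1417023_a_at) read 699 and 1304 with EGFP against 219.8 and 691 with p62-EGFP. The groups did not overlap, but EGFP tumor 1 and p62-EGFP tumor 2 were nearly equal. The means were 1001 ± 428 and 455 ± 333 (SD, n = 2 each), and the log2 difference was -1.25 (SE 0.57, limma adjusted p = 0.383). Leaving out p62-EGFP tumor 1 made it -0.46. The other tested probe set (1451263_a_at) read 135 and 231 against 56.8 and 169, so here p62-EGFP tumor 2 lay above EGFP tumor 1. Its log2 difference was -0.73 (SE 0.49, limma adjusted p = 0.526), which became -0.06 when p62-EGFP tumor 1 was left out. The dim pair read 13.5 and 50.3 against 3.8 and 14.4 (1424155_at), and 11.1 and 49.5 against 12.2 and 13.6 (1425809_at). EGFP tumor 2 was the highest for all 4. The binding protein genes are closely related, and probe sets of 1 member can share signal with another. Fabp5, which lies near Fabp4 on chromosome 3 and was picked out after its values were seen, read 896 and 2238 against 1112 and 1076, a log2 difference of -0.37 (limma adjusted p = 0.696). Like Fabp4 it was highest in EGFP tumor 2, but its p62-EGFP tumors lay above EGFP tumor 1.

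Lipe encodes hormone-sensitive lipase, which cleaves diglyceride in fat cells. Its single probe set (1422820_at) read 65.6 and 72.4 with EGFP against 29.0 and 41.6 with p62-EGFP. Both p62-EGFP values lay well under the EGFP pair, whose tumors differed 1.10-fold. The means were 69.0 ± 4.81 and 35.3 ± 8.91 (SD, n = 2 each), and the log2 difference was -0.74 (SE 0.21, 95% interval -1.28 to -0.20), and it did not pass (limma adjusted p = 0.256). Leaving out any 1 tumor gave log2 differences between -0.92 and -0.56, all in the same direction.

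Pnpla2 encodes the lipase that takes the first fatty acid from triglyceride, ahead of the enzyme made from Lipe. Its brighter probe set (1428143_a_at) read 151 and 178 with EGFP against 130.1 and 166.5 with p62-EGFP. The groups overlapped, and the log2 difference was -0.14 with a 95% interval from -0.63 to 0.35 (limma adjusted p = 0.754). Its other probe set (1428591_at) read between 4.2 and 5.0 in all tumors, near the floor of the array. Whether Lipe and Pnpla2 differed from each other in their response was not tested.

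Dgat2, an enzyme of the last step of triglyceride synthesis, had a pair of probe sets that disagreed in direction. The brighter (1422678_at) read 106 and 81.0 with EGFP against 78.9 and 86.5 with p62-EGFP, a log2 difference of -0.14 (limma adjusted p = 0.758). The other (1422677_at) read 53.6 and 38.5 against 59.0 and 64.8, a log2 difference of 0.34 (limma adjusted p = 0.494). The second separated the groups and the first did not. The 95% intervals, -0.63 to 0.35 and -0.19 to 0.87, overlap each other.

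Lpl, the lipase of the capillary wall, overlapped between the groups at both probe sets. The brighter (1415904_at) read 260.1 and 690.3 with EGFP against 432 and 360.0 with p62-EGFP. The other (1431056_a_at) read 61.9 and 175 against 111 and 115. In both, the EGFP tumors were the lowest and the highest of the 4, and the p62-EGFP tumors lay between them. The log2 differences were -0.10 (95% interval -1.22 to 1.01, limma adjusted p = 0.926) and 0.08 (SE 0.43, limma adjusted p = 0.946). Against EGFP tumor 1 alone they were 0.57 and 0.73, and against EGFP tumor 2 alone -0.78 and -0.57, so the direction depended on which EGFP tumor was used.

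Pparg, the nuclear receptor, showed the same arrangement. Its probe set (1420715_a_at) read 22.4 and 110.5 with EGFP against 42.7 and 28.3 with p62-EGFP. EGFP tumor 2 was the highest and EGFP tumor 1 the lowest, and the p62-EGFP tumors lay between them. The log2 difference was -0.45 (SE 0.57, limma adjusted p = 0.732). It was -1.31 without EGFP tumor 1 and turned to 0.41 without EGFP tumor 2.

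Car3, a cytosolic carbonic anhydrase abundant in fat cells and slow muscle, ran opposite to Cd36 and Fabp4. The brighter probe set (1449434_at) read 4.1 and 121 with EGFP against 794 and 279 with p62-EGFP. The other (1460256_at) read 9.0 and 27.2 against 207 and 71.3. Both put the tumors in the same order, with p62-EGFP tumor 1 the highest and EGFP tumor 1 the lowest, and the groups did not overlap. At the brighter one the means were 62.4 ± 82.4 and 537 ± 364 (SD, n = 2 each). The log2 differences were 3.22 (SE 0.97) and 2.09 (SE 0.51), and neither passed (limma adjusted p = 0.266 and 0.221). EGFP tumor 1 was near the floor of the array at both probe sets, so the size of these differences depends on the pseudocount. With pseudocounts of 64 and 1 the log2 difference of the brighter one was 2.27 and 4.24, and that of the other 1.23 and 2.87. Without EGFP tumor 1 the log2 differences were 1.84 and 1.69, and without p62-EGFP tumor 1 they were 2.49 and 1.41. Car3 lies on chromosome 3 beside other carbonic anhydrase genes, and Car2 and Car13 among them did not share its order of tumors. Car2, the 1 tested gene of 14 other carbonic anhydrases, read 19.2 and 78.5 against 31.2 and 36.8 (log2 difference -0.21, limma adjusted p = 0.859). Its neighbour Car13, named after its values were seen, read 18.6 and 52.4 against 16.9 and 21.0, below the filter. Car1, which lies between Car13 and Car3 and was named in the same way, read 3.4 and 2.1 against 6.5 and 6.7. The p62-EGFP pair of Car1 was the higher one, as for Car3, but all its values were near the floor.

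**Figure D2:**
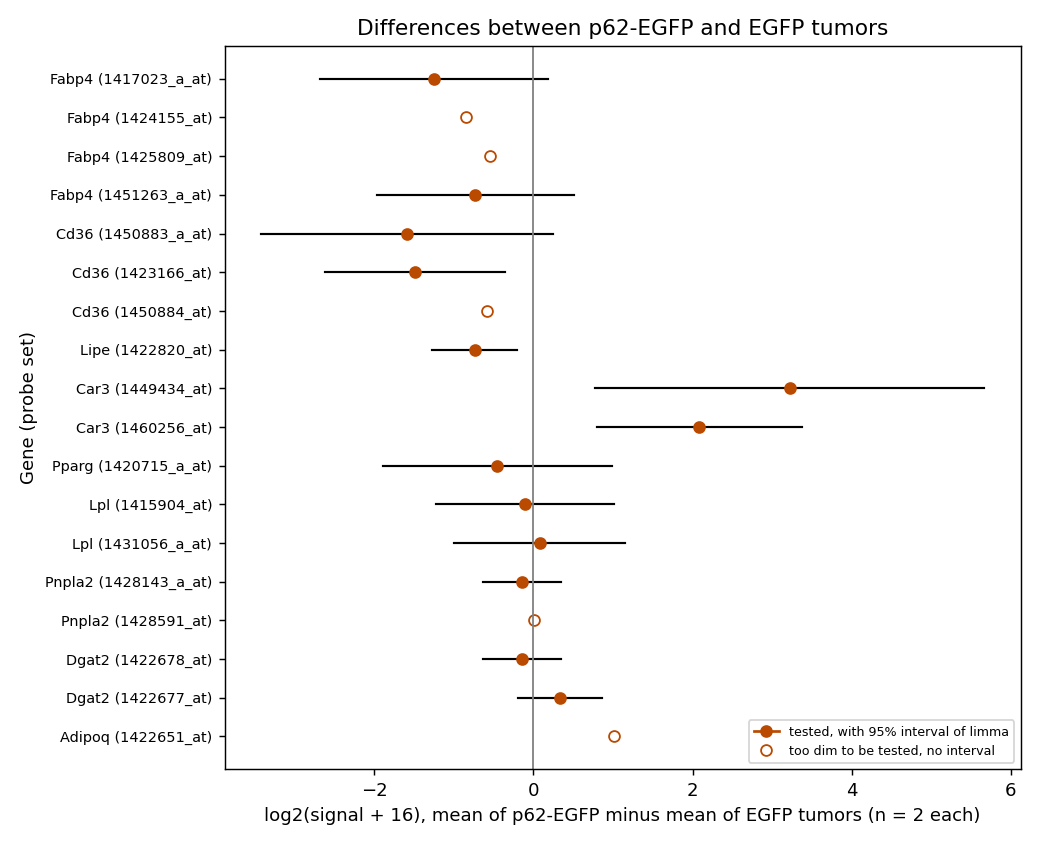
Difference between the group means on the log2(signal + 16) scale for each of the 18 probe sets, p62-EGFP minus EGFP, with 2 tumors per group. Filled points carry the 95% interval of limma, open points were too dim to be tested, and the intervals of 1 Cd36 probe set, Lipe and both Car3 probe sets leave out 0 before adjustment.

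Markers of other cells that use these genes varied between the tumors in the same comparison. Macrophage markers were summed over 20 of 20 genes, at 1622 and 13506 with EGFP against 2871 and 3013 with p62-EGFP. Of these, 19 were highest in EGFP tumor 2, and 0 separated the groups. C1qa, a complement subunit made by macrophages, read 249 and 1765 against 427 and 409.9, and the macrophage receptor gene Csf1r 159 and 941 against 306 and 309. Both genes were lowest in EGFP tumor 1 and highest in EGFP tumor 2, as were Pparg and Lpl. The part of macrophages in the levels of Pparg, Lpl, Cd36 and Fabp4 was not tested.

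Most endothelial markers read lower in the p62-EGFP tumors. The sum over 14 of 14 genes was 583 and 801 with EGFP against 326 and 411 with p62-EGFP. Of the 14, 10 were below both EGFP tumors, among them 7 of the 9 tested, beside 22.2% of all tested probe sets. The other 4 overlapped, among them the receptor gene Flt1 at 23.8 and 41.4 against 39.7 and 37.8, named after its values were seen. Esam, an endothelial adhesion molecule, read 85.3 and 108 against 45.5 and 55.3, and Pecam1, or CD31, 63.7 and 122 against 41.1 and 54.9. The order of the 4 sums was that of the brightest probe sets of Cd36 and Fabp4, EGFP tumor 2 highest and p62-EGFP tumor 1 lowest. The part of endothelium in those levels was not tested.

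Skeletal muscle markers were summed over 19 of 20 genes, at 150.4 and 1078 with EGFP against 6265 and 206 with p62-EGFP. All 19, with the 10 tested ones among them, were highest in p62-EGFP tumor 1, which was the highest for 21.3% of all tested probe sets. Acta1, the actin of skeletal muscle, read 9.3 and 212 against 1141 and 7.9. Car3 was highest in p62-EGFP tumor 1 too. The muscle sum and 12 of the 19 markers were higher in p62-EGFP tumor 2 than in EGFP tumor 1. Apart from Eno3, at 89.1 against 60.3, every marker read below the filter in both of these tumors, and many were near the floor. The order was not that of Car3 throughout, and the muscle list was not split into slow and fast fibres. The muscle sum was higher in EGFP tumor 2 than in p62-EGFP tumor 2 (1078 against 206). Car3 was lower there, at 121 against 279 and 27.2 against 71.3 for its 2 probe sets. The part of muscle in the Car3 level was not tested.

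**Figure D3:**
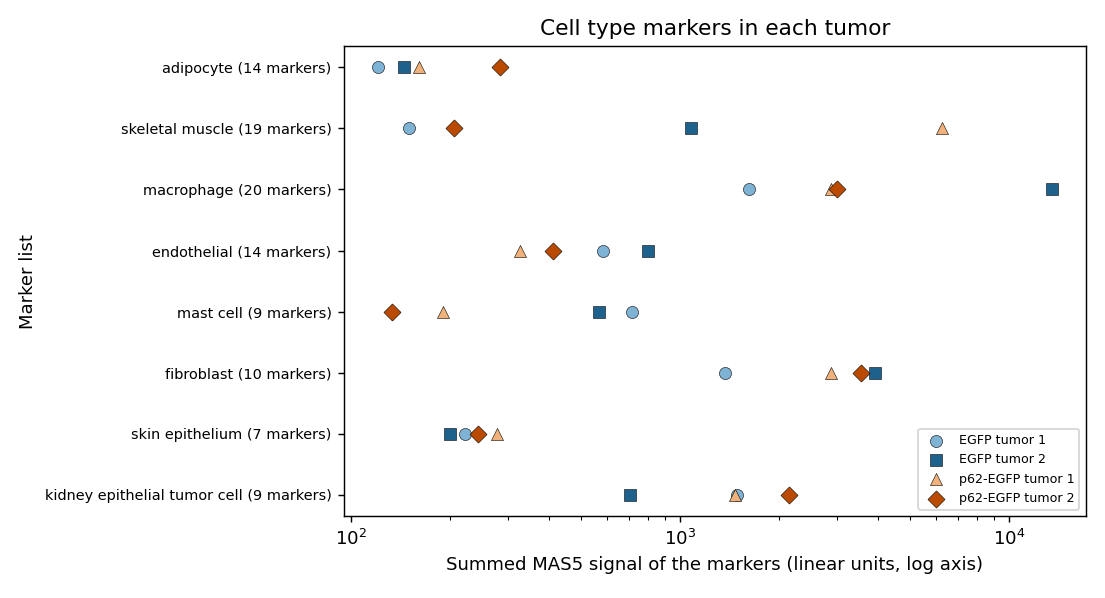
Summed MAS5 signal (log axis) of the measured markers of 8 cell types, with a point per tumor. EGFP tumor 2 stands apart for macrophage markers at 13506, p62-EGFP tumor 1 for skeletal muscle markers at 6265, and the adipocyte sums stay between 121 and 283.

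The remaining lists describe the tumor cells and other host cells. Kidney epithelial markers summed to 1495 and 707 with EGFP against 1470.1 and 2148 with p62-EGFP over 9 of 10 genes. The epithelial keratin Krt18 read 730 and 254 against 545 and 627, and Krt8 137 and 80.5 against 101 and 239. Krt19 read 93.6 and 156 against 333 and 341, and Epcam 351 and 109 against 361 and 660. Of the 5 tested genes 2, Epcam and Krt19, lay above both EGFP tumors, beside 26.7% of all tested probe sets, and the others overlapped. The kidney markers Pax8 and Cdh16 stayed at or below 11.2. The tumors thus showed epithelial keratin, and the 2 kidney markers were near the floor of the array. Fibroblast markers (10 of 10) summed to 1372 and 3911 against 2876 and 3564. Mast cell markers (9 of 9) summed to 714 and 567 against 190.4 and 134. Of these, 7 were below both EGFP tumors, among them 3 of the 4 tested, beside 22.2% of all tested probe sets. Skin epithelial markers (7 of 8) summed to 223 and 200.1 against 277 and 243.

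Genes around the listed ones in lipid handling were read from 5 further lists, and 0 of their tested genes passed in either direction (limma, adjusted over all probe sets, lowest adjusted p = 0.221). Among 17 tested genes of fatty acid uptake and binding, 8 lay below both EGFP tumors (22.2% of all tested probe sets) and 3 above (26.7%), with a median log2 difference of -0.18. EGFP tumor 2 was the highest for 10 of the 17. Cav1, the coat protein of caveolae, which are dense in fat cells and endothelium, read 355 and 455 with EGFP against 147 and 226 with p62-EGFP, a log2 difference of -1.07 (limma adjusted p = 0.221). Cavin1, its partner in caveolae, read 98.8 and 150.5 against 65.8 and 82.7 (limma adjusted p = 0.342). Lrp1, a receptor for lipoprotein remnants, read 123 and 206 against 76.9 and 96.9 (limma adjusted p = 0.311). Dbi, the acyl-CoA binding protein, ran the other way, at 689 and 716 against 892 and 869 (limma adjusted p = 0.322). Cav1 and Lrp1 shared with Cd36 that both p62-EGFP tumors were lowest.

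Of 6 tested genes of lipid droplets and lipolysis, 1 lay below both EGFP tumors and 1 above, and the median was -0.12. The shares over all tested probe sets were 22.2% below and 26.7% above. Plin2, the droplet coat protein found in most cells, read 324 and 908 against 282 and 349 (limma adjusted p = 0.490), again highest in EGFP tumor 2. Mgll, the lipase of the last step of fat breakdown, read 76.4 and 80.4 against 44.5 and 67.7 (limma adjusted p = 0.447). Hilpda, an inhibitor of the lipase made from Pnpla2, read 49.9 and 42.6 against 64.2 and 67.2 (limma adjusted p = 0.390). Bscl2, or seipin, which shapes droplets, overlapped at 497 and 468 against 474 and 347.

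Of 9 tested genes of triglyceride synthesis, 3 lay below both EGFP tumors and 2 above, with a median of -0.06. Among all tested probe sets 22.2% lay below and 26.7% above. Dgat1, the other enzyme of the final step beside Dgat2, read 164 and 163 against 120.2 and 111 (log2 difference -0.45, limma adjusted p = 0.311). The phosphatidate phosphatase gene Lpin2 read 136 and 125 against 99.0 and 91.1 (limma adjusted p = 0.351). Agpat5, an acyltransferase, was higher in both p62-EGFP tumors at 99.5 and 111 against 166 and 129 (limma adjusted p = 0.377). Gpat4, an enzyme of the first step, read 173 and 143 against 118 and 126.5 (limma adjusted p = 0.440). Unlike Cd36, Dgat1 was nearly equal within each pair of tumors.

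Of 16 tested regulators of fat cell differentiation, 4 lay below both EGFP tumors and 2 above, with a median of -0.07. For all tested probe sets the shares were 22.2% below and 26.7% above. Rxra, the partner receptor of PPARg, read 93.0 and 76.4 against 57.8 and 64.8 (limma adjusted p = 0.409). Med1, a coactivator of PPARg, read 359 and 324 against 463 and 445.5 (limma adjusted p = 0.323). Gata2, which holds back fat cell differentiation, read 147 and 112.5 against 89.1 and 85.4 (limma adjusted p = 0.342), and Klf4, an early differentiation factor, 519 and 409 against 292 and 364.5 (limma adjusted p = 0.350). EGFP tumor 2, where Pparg was highest, was the highest for 0 of these 4 and for 4 of the 16. The 3 C/EBP factor genes of the list, which act with Pparg in fat cell differentiation and were named after their values were seen, were highest there. Cebpa read 57.1 and 176 against 56.8 and 71.3, Cebpb 106 and 261 against 77.5 and 135, and Cebpd 32.3 and 141 against 44.8 and 79.8.

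Of 20 tested genes of fatty acid oxidation, 7 lay above both EGFP tumors and 1 below, with a median of 0.11, beside 26.7% above and 22.2% below over all tested probe sets. The enzyme gene Acadvl, for very long chain fatty acids, read 450.0 and 347 with EGFP against 626 and 670.1 with p62-EGFP, a log2 difference of 0.69 (limma adjusted p = 0.229). Cpt2, the inner carnitine transferase, read 99.0 and 88.4 against 154 and 131 (limma adjusted p = 0.294), and Pdk4, a brake on glucose oxidation, 188 and 126 against 231 and 241 (limma adjusted p = 0.343). Cpt1a, the outer carnitine transferase that controls entry of fatty acids into mitochondria, was the gene below both EGFP tumors, at 238.5 and 297 against 191 and 181 (limma adjusted p = 0.323).

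**Figure D4:**
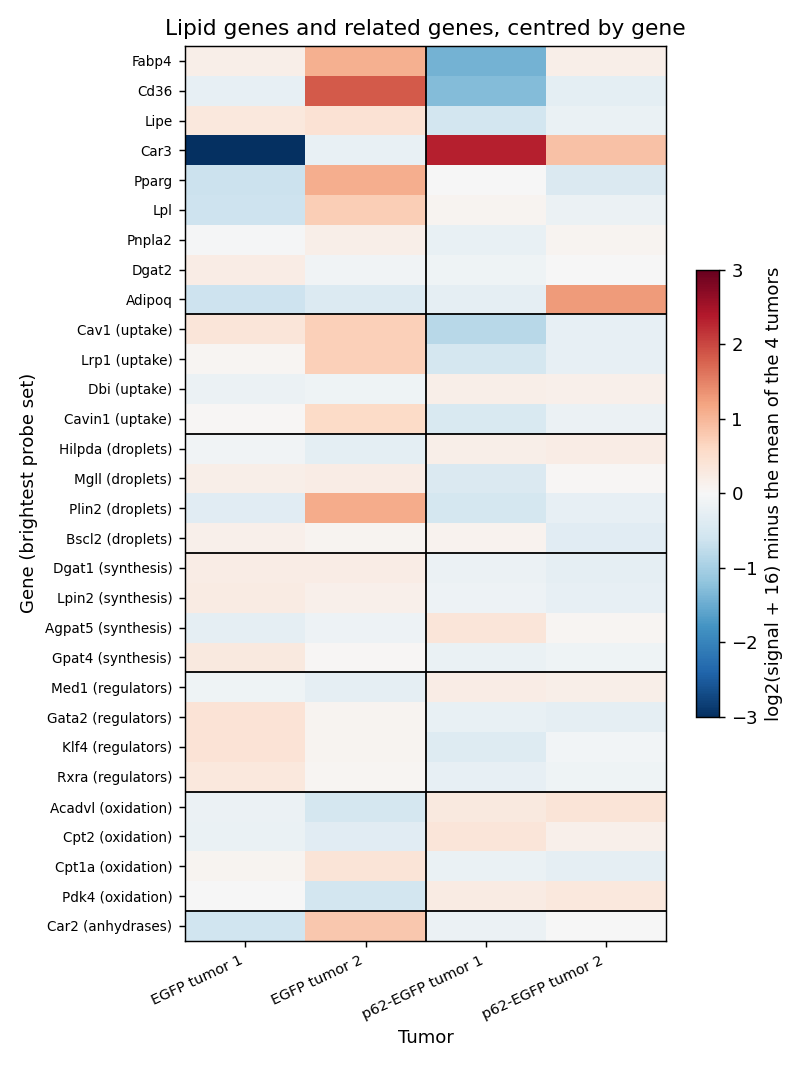
log2(signal + 16) of each gene at its brightest probe set minus its mean over the 4 tumors, for the 9 listed genes (top block) and the genes named from each related list. Red in the EGFP tumor 2 column marks, among others, Fabp4, Cd36, Pparg, Lpl, Plin2, Cav1, Lrp1 and Car2. Car3 runs from blue in EGFP tumor 1 to red in p62-EGFP tumor 1.

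The genes with the most similar profiles were found by the Euclidean distance between mean-centred log2 profiles over the 4 tumors, for the 5 members whose signal was tested and ranged over at least 1 log2 unit. With 4 tumors such distances are a description. Nearest to Fabp4 were Steap4, a metalloreductase gene (distance 0.18 log2 units), Irf7, an interferon regulatory factor (0.46), and Oasl2, an interferon-induced gene (0.56). Nearest to Cd36 were the guanylate-binding protein gene Gbp7 (0.30), Gm20559 (0.37) and the interferon-induced Ifit1 (0.43). Irf7 read 394 and 807 with EGFP against 178 and 366 with p62-EGFP, and Ifit1 165 and 522 against 72.7 and 134. Pparg lay nearest to Pla2g4a, a cytosolic phospholipase (0.15), St8sia4, a sialyltransferase (0.16), and Adcy7, an adenylyl cyclase (0.17). Nearest to Lpl were the glutathione peroxidase gene Gpx1 (0.10), the proton channel gene Hvcn1 (0.13) and Dpt, which encodes the matrix protein dermatopontin (0.18). The nearest genes to Car3, Mfap2, Cntn1 and Sectm1a, were 1.99, 2.08 and 2.09 log2 units away. Such distances grow with the range of a profile, which was 5.33 log2 units for Car3 and from 1.36 to 3.14 for the other members.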

How the data were processed

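Each deposited array holds linear signal intensities of a single colour. The submitters' processing notes name MAS5; its settings are not stated in the sources used here. The 2% trimmed mean was 150.04 on each array, and no further scaling was applied. The array medians ran from 57.7 to 60.9. Of 22690 probe sets, 64 controls were left out. Genes were named through the array annotation, in which 20380 probe sets had 1 symbol, 691 several and 1555 none. Signals were taken as log2(signal + 16), on which changes of dim probe sets are understated. The 13576 probe sets with a mean at or above the 40th percentile (log2 5.60, a signal of about 32.7) were tested with lmFit and eBayes (trend) in limma 3.58.1 (R 4.3.3), with two-sided p-values adjusted by Benjamini-Hochberg over all of them. The design text names Genes@Work, which was not used here. The fit was tested on simulated data. Precision is limited by there being 4 arrays. With 2 per group the fit has 2 residual degrees of freedom, and the smallest p of an exact two-sided permutation test is 0.333. A gene of a list is represented by its brightest probe set. Named are all member probe sets, up to 4 genes of smallest p per pathway list and up to 4 brightest per marker list. The 3 nearest profiles per member are named too. Lep, Acvr1c, Aqp7, Ucp1, Pax8, Cdh16, Flt1, Fabp5, Car1, Car13 and the C/EBP genes were named after their values were seen. The members and lists were chosen with earlier results of these data known. Promoter sequences are from RefSeq (GRCm38.p6). Alternatives covered array scaling, pseudocount, filter, variance trend, a replicate block and leaving out each tumor. Tables and figures used Python 3.11.15, pandas 2.3.3 and matplotlib 3.10.9.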

Additional observations from a re-analysis of the deposited data

How the results depend on the processing

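With all 4 tumors in the fit, 0 member probe sets passed under quantile normalization, median centring or a pseudocount of 1 or 64 (limma). The same held for no filter, the 60th percentile filter, no variance trend and the replicate block (limma). All 98 member differences under these settings kept their direction, but only the scalings and pseudocounts could change a difference. The filters, the variance trend and the replicate block leave it the same by construction. The member median here is the median log2 difference of the 9 member genes, with untested Adipoq included, which was -0.14. It ran from -0.16 to -0.07 over the 2 scalings, the 2 pseudocounts and the mean of all probe sets of a gene. Over all probe sets, where 8 passed higher and 4 lower, 4 passed higher with a pseudocount of 1 or the 60th percentile filter and 3 with no filter. With the replicate block 14 passed higher and 23 lower. The replicate numbers do not pair the tumors by the labels. Deviations of same-numbered tumors correlated at r = 0.08 across 13576 probe sets. This rests on a single difference per group, so it cannot tell whether same-numbered tumors shared a mouse or culture.

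Leaving out 1 tumor moved more. The counts ran from 0 without either p62-EGFP tumor to 1540 higher and 1302 lower without EGFP tumor 1, with 682 and 597 without EGFP tumor 2; in these last fits the spread is that of the p62-EGFP tumors, and the lone EGFP tumor is assumed to vary like them. Member calls ran from 0 to 9 and the member median from -0.78 to -0.035. Without EGFP tumor 1, 9 member probe sets passed, and without EGFP tumor 2, 4 passed: both of Car3, 1423166_at of Cd36 (limma adjusted p = 0.0494) and 1431056_a_at of Lpl. Of the 52 member differences, 6 turned. Over the tumors left out, Pparg ran from -1.31 to 0.41, turning without EGFP tumor 2. Lpl 1415904_at ran from -0.78 to 0.57, turning without EGFP tumor 2 and, at 0.02, without p62-EGFP tumor 2. Lpl 1431056_a_at ran from -0.57 to 0.73, turning without EGFP tumor 1. Pnpla2 ran from -0.30 to 0.018, turning without p62-EGFP tumor 1, and Dgat2 1422678_at from -0.30 to 0.024, turning without EGFP tumor 1. The cause was not tested. Signal over background limits Adipoq, Car3 in EGFP tumor 1 and the dim probe sets of Fabp4, Cd36 and Pnpla2.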
